A study of Rattus norvegicus with 8 samples.

Results

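Thyroid expression of 10 AP-1 and immediate early genes was examined in irradiated and sham-irradiated rats. The 10 genes were taken by name from the 30560 gene identifiers in the count table: the AP-1 subunits Fos, Fosb, Fosl1, Fosl2, Jun, Junb and Jund, and Egr1, Atf3 and Ier2. The samples were thyroids of male Wistar rats whose neck was exposed to X-rays at 4 Gy or to sham irradiation (0 Gy). Exposure was at 1 week of age (1w0Gy and 1w4Gy) or at 4 months of age (4m0Gy and 4m4Gy), and the thyroid was collected 8 weeks later. Each group held 2 samples from separate rats, whose RNA had been picked for sequencing by its higher integrity. The 1w and 4m groups therefore differed both in age at exposure and in age at collection, and these cannot be told apart. Neither can be told apart from any difference in how the samples of the 1w and 4m groups were collected. The labels name no genetic change in these rats.

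Immediate early genes are transcribed within minutes of a stimulus without new protein synthesis, and their mRNAs are usually short-lived. AP-1 is a pair of basic leucine zipper proteins, either of Jun proteins or of a Jun protein with a Fos or ATF protein, which binds TGANTCA or TGACNTCA sites and regulates genes of growth, stress and matrix turnover. Ionizing radiation and tissue handling can both switch many of these genes on acutely. In thyroid follicular cells they also respond to TSH and growth factors.

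Each sample held between 14835406 and 18138113 gene counts, and Tg, which encodes thyroglobulin, took 18.5% to 21.3% of them. All 10 listed follicular cell markers were in the table, and their summed level was 189937 to 224971 CPM (counts scaled to the library size after TMM normalisation) in every sample. Of the listed markers of all cell types that were in the table, none was at 0 in all samples. Markers of other cells varied. Parathyroid markers summed to 343.4 CPM in 4m4Gy replicate 2 against 1943 to 5462 CPM elsewhere. Fibroblast markers summed to 2234 to 3066 CPM in the 1w samples and 844.0 to 1148 CPM in the 4m samples. In bulk tissue, fewer cells of a type and less RNA per cell cannot be told apart. The replicates within each group differed by more than sampling noise, with chi-square values per degree of freedom of 8.44 to 17.3.

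Promoter letters are shown for the members on which the results turn: Fosl2 and Egr1, which had the largest differences for their error after neonatal irradiation, and Junb and Jund, which differed between ages. RefSeq promoter entries (GRCr8) matched 7 of the 10 members, all but Fos, Jun and Atf3. Each line holds the 250 bases before the RefSeq start, 5′ to 3′ on the gene's strand. Fosl2 lies at chr6:30039270-30039519 (minus strand), Egr1 at chr18:26736828-26737077 (plus strand), Junb at chr19:40080876-40081125 (plus strand) and Jund at chr16:18769772-18770021 (minus strand). Capitals mark matches to TGANTCA and TGACNTCA (AP-1 and CRE type sites), the CArG box (the serum response factor site) and GCGNGGGCG (the EGR site), searched on both strands.
Fosl2: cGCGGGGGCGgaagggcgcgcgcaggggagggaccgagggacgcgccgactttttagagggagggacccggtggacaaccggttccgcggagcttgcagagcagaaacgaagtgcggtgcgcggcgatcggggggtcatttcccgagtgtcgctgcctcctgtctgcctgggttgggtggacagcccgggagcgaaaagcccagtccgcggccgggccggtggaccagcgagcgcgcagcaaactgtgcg
Egr1: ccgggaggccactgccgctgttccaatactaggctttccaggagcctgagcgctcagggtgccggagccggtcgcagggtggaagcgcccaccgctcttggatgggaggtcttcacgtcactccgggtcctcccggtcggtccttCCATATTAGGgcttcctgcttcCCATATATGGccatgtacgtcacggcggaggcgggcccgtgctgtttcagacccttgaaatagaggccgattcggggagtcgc
Junb: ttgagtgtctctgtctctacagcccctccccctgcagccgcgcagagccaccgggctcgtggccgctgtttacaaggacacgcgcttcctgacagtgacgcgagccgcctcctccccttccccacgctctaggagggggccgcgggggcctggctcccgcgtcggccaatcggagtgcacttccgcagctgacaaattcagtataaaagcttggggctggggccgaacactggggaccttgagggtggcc
Jund: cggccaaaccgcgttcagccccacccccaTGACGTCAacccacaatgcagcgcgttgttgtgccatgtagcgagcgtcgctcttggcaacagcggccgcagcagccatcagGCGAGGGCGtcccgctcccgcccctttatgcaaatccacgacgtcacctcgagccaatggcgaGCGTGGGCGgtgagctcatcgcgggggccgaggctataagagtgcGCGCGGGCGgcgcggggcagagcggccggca
Egr1 held 2 CArG boxes, from base -105 to -96 and from -83 to -74 before the start. A CArG box was found in 1.497% of 33469 promoters of the same length. Fosl2 held 1 GCGNGGGCG match, from -249 to -241, a motif found in 4.29% of promoters. Jund held 3 GCGNGGGCG matches and 1 TGACNTCA match, from -221 to -214. TGACNTCA was found in 8.88% of promoters and TGANTCA in 6.34%. Junb had none of the 4 motifs in this window. Of the other matched members, Ier2 held 1 TGACNTCA match, from -66 to -59, and Fosb and Fosl1 held none. No matches overlapped. GC content ran from 43.6% in Fosb to 70.4% in Fosl2.

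The members differed in level over more than 3 orders of magnitude. On the length-corrected TPM scale (transcript abundance for length and depth, as deposited), Jund had the highest mean level, 109 TPM with a range of 83.6 to 139.7 over the 8 samples. Jun followed with 22.7 TPM (17.2 to 29.6) and Junb with 15.9 TPM (12.1 to 19.2). Of the Jun proteins c-Jun has strong activity, whereas JunB is a weaker activator that can restrain c-Jun. Junb carries the biotype pseudogene in the authors' table although its name is that of the coding gene. Egr1, a zinc finger factor, had a mean of 6.73 TPM (4.86 to 8.05). Fosl2, which encodes Fra-2, had 6.22 TPM (4.37 to 7.87), and Ier2, a small nuclear regulator, had 5.94 TPM (5.37 to 6.57). Fos had 2.45 TPM (1.88 to 3.66). Atf3, a stress-induced repressor of the ATF family, had 1.146 TPM (0.745 to 1.46). Fosb was at 0.219 TPM (0.116 to 0.405) and Fosl1, which encodes Fra-1, at 0.0793 TPM (0.0331 to 0.126).

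The 3 Jun genes thus stood above every Fos gene in all samples. The ranges of neighbours in this order overlapped for Jun and Junb, Egr1 and Fosl2, Fosl2 and Ier2, and Fosb and Fosl1. Jun was above Junb in 8 of 8 samples and Fosb above Fosl1 in 8 of 8. Egr1 was above Fosl2 in 6 of 8 samples and Fosl2 above Ier2 in 4 of 8, so the order of these 3 genes was not fixed. The TPM of Fosl2 is that of its transcript of 3244 bases. Its transcripts of 2118 and 4192 bases had similar counts, so its place among these genes also depends on the transcript taken. Among the Fos genes, Fosl2 was the most abundant in each sample.

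**Figure D1:**
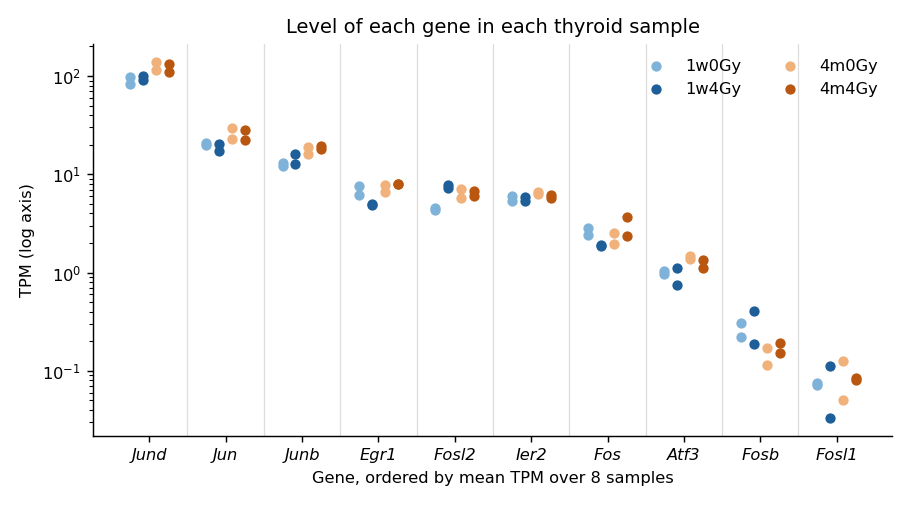
TPM of each gene (log axis) in the 8 samples, ordered by the mean over samples; each point is 1 sample, coloured by group. Jund lies between 83.6 and 139.7 TPM and Fosl1 between 0.0331 and 0.126 TPM, with Egr1, Fosl2 and Ier2 overlapping in the middle.

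Counting error limited the lowest members. Fosl1 had 2 to 8 counts per sample, and its lowest count of 2 has an exact 95% Poisson interval of 0.242 to 7.22. Fosl1 did not pass the filter on low counts in any comparison, so 9 of 10 members were tested. Fosb had 7 to 25 counts and Atf3 24 to 47. Fos had 52 to 96 counts, Fosl2 266 to 434, Egr1 257 to 463, Junb at most 579, Ier2 459 to 592, Jun 1354 to 2220 and Jund 2622 to 3902. These intervals cover counting error only.

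After neonatal irradiation Fosl2 was the member with the largest difference. Its level was 15.8 and 15.3 CPM in the 1w0Gy samples and 25.6 and 26.9 CPM in the 1w4Gy samples. Both irradiated samples lay above both sham samples and, by a smaller margin, above every 4m sample. The group means were 15.6 ± 0.351 CPM in 1w0Gy and 26.2 ± 0.869 CPM in 1w4Gy (SD, n = 2). The fold change was 1.68 (log2 0.75, SE 0.11), with an unadjusted p of 1.44e-04 and an adjusted p of 0.395 in edgeR's quasi-likelihood test over 15359 genes. It therefore missed the call, which asked for an adjusted p under 0.05 and a fold above 1.5 or below 0.5. By DESeq2 the adjusted p was 0.0497, which passed the call. The study's own DESeq2 analysis of these groups did not list Fosl2 among its differentially expressed genes. Leaving out 1 sample leaves a group with 1, which is then assumed to vary like the other pair. The adjusted p by edgeR was 0.0392 without 1w4Gy replicate 1, 0.0588 without 1w4Gy replicate 2, 0.618 without 1w0Gy replicate 2 and 0.999996 without 1w0Gy replicate 1. The log2 fold change lay between 0.72 and 0.78 in these fits. Fosl2 has 3 transcripts in the table, and the counts above are for the one with the most reads. The other 2, of 2118 and 4192 bases, had 260 and 248, and 283 and 266 counts in 1w0Gy. In 1w4Gy they had 376 and 391, and 400 and 407 counts. Counts this close between transcripts of 1 gene may be the same reads counted for each, so the 3 are not separate measurements.

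Egr1 and Fos were lower in the neonatally irradiated samples. Egr1 was 25.02 and 20.8 CPM in 1w0Gy and 16.6 and 15.9 CPM in 1w4Gy, and both irradiated samples were below all 6 others. Its log2 fold change was -0.49 (SE 0.13) with an adjusted p of 0.822 by edgeR. Fos was 4.11 and 4.90 CPM in 1w0Gy and 3.22 CPM in each 1w4Gy sample. The groups did not overlap, with a log2 fold change of -0.48 (SE 0.23) and an adjusted p of 0.877 by edgeR. Neither gene passed the test.

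The Jun genes showed small differences after neonatal irradiation. Jun was 101 and 98.1 CPM in 1w0Gy and 83.8 and 97.0 CPM in 1w4Gy, which did not overlap but lay close, with a log2 fold change of -0.14 (SE 0.10). Junb was 23.8 and 22.1 CPM against 29.6 and 22.6 CPM, and only replicate 1 of 1w4Gy stood above the sham samples. Jund was 150 and 176 CPM against 183 and 162 CPM, and the groups overlapped. Log2 fold changes were 0.19 (SE 0.14) for Junb and 0.08 (SE 0.11) for Jund.

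Fosb, Atf3 and Ier2 overlapped between 1w0Gy and 1w4Gy. Fosb was 0.865 and 1.21 CPM in 1w0Gy and 0.743 and 1.55 CPM in 1w4Gy, so its irradiated replicates were 2.08-fold apart. Atf3 was 2.11 and 1.961 CPM against 2.29 and 1.48 CPM. Ier2 was 28.9 and 32.9 CPM against 32.1 and 28.4 CPM, the narrowest spread of any member. Their log2 fold changes lay between -0.11 and 0.14, each smaller than its standard error.

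In this comparison 0 of 9 members were called by edgeR, against 0.00651% of all genes tested. At an unadjusted p under 0.05 there were 2 members, Fosl2 and Egr1, against 5.68% of genes, and DESeq2 called 1 member against 0.0781% of genes. The groups did not overlap, higher after irradiation, in 1 member (17.6% of genes) and, lower, in 3 members (18% of genes). The median log2 fold change was -0.03 over the 9 members and 1.7e-05 over all genes. Fat markers summed to 486 to 621 CPM in 1w0Gy and 331 to 342 CPM in 1w4Gy, with all 8 of the list lower in both irradiated samples. Endothelial markers summed to 787 to 818 CPM and 933 to 967 CPM, with 5 of 7 higher in both. Their part in the Fosl2, Egr1 and Fos values was not tested.

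**Figure D2:**
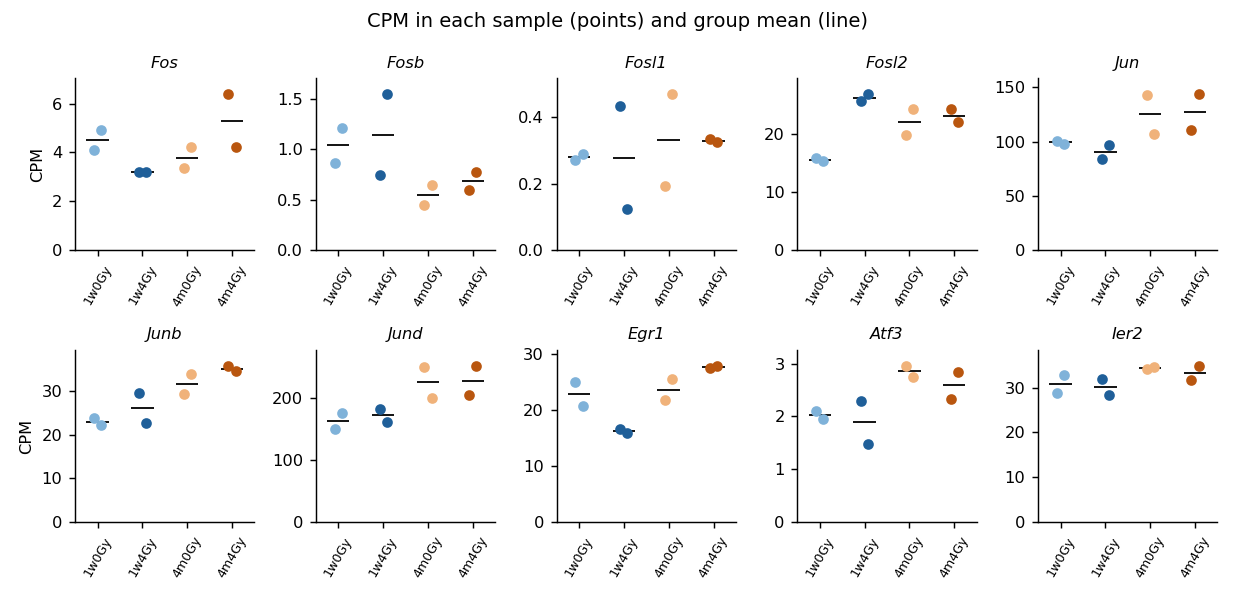
CPM of each of the 10 genes in the 4 groups, with a panel and a linear axis from 0 for each gene; points are samples and short lines are group means of 2 samples. Fosl2 is lowest in 1w0Gy (15.3 and 15.8 CPM), Egr1 is lowest in 1w4Gy (15.9 and 16.6 CPM), and Jun, Jund and Atf3 lie higher in all 4m samples than in all 1w samples.

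After irradiation at 4 months no member was called. Egr1 was 21.8 and 25.5 CPM in 4m0Gy and 27.6 and 27.9 CPM in 4m4Gy. The irradiated samples were the highest of all 8, and the log2 fold change was 0.22 (SE 0.11) with an adjusted p of 0.652 by edgeR. Fos was 3.35 and 4.22 CPM in 4m0Gy and 6.39 and 4.21 CPM in 4m4Gy. Only replicate 1 of 4m4Gy stood apart for Fos, and the fold change of 1.39 (log2 0.47, SE 0.28) had an adjusted p of 0.696 by edgeR. Without that sample the log2 fold change of Fos was 0.14.

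Fosl2 overlapped between the 4m groups. It was 19.8 and 24.3 CPM in 4m0Gy and 24.3 and 21.97 CPM in 4m4Gy, with a log2 fold change of 0.06 (SE 0.13). Junb was 29.4 and 34.0 CPM against 35.8 and 34.5 CPM, which did not overlap, with a log2 fold change of 0.14 (SE 0.10). Jun was 143 and 107 CPM in 4m0Gy and 110 and 144 CPM in 4m4Gy. Jund followed the same pattern, with 251 and 201 CPM in 4m0Gy and 205 and 253 CPM in 4m4Gy. For both genes 4m0Gy replicate 1 and 4m4Gy replicate 2 were the highest samples, and the log2 fold changes were 0.01 for each (SE 0.21 for Jun and 0.15 for Jund).

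Fosb was 0.451 and 0.645 CPM in 4m0Gy and 0.599 and 0.778 CPM in 4m4Gy. Atf3 was 2.96 and 2.76 CPM against 2.33 and 2.85 CPM, and Ier2 was 34.2 and 34.7 CPM against 31.8 and 34.9 CPM. All 3 genes overlapped between the groups, with log2 fold changes of 0.31 (SE 0.52), -0.15 (SE 0.29) and -0.06 (SE 0.09). Of 9 members, 0 were called by edgeR (0.0197% of genes), 0 by DESeq2 (0.0328% of genes), and 0 had an unadjusted p under 0.05 (8.39% of genes). The groups did not overlap, higher after irradiation, in 2 members (22% of genes) and, lower, in 0 members (18% of genes). The median was 0.06 over the 9 members and 0.01 over all genes. All 8 fat markers had negative log2 fold changes here too (median -0.57, 0 called by edgeR), with 1 of 8 lower without overlap. The C cell list had a median of 0.43, with 4 of 5 positive and 0 called. Their part in the members' values was not tested.

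The difference between both irradiation responses was fitted as an age-by-irradiation interaction, signed as the response at 1 week minus that at 4 months. It used the same 8 samples as the comparisons above and is not separate evidence. Egr1 had an interaction of -0.72 (SE 0.17), Fos of -0.96 (SE 0.37) and Fosl2 of 0.69 (SE 0.17) on the log2 scale. Their adjusted p-values by edgeR were 0.399, 0.490 and 0.399. No member was called (0 of 9, against 0% of genes), by edgeR or by DESeq2 (0.166% of genes). At an unadjusted p under 0.05 there were 3 members, those just named, against 9.12% of genes. The other 6 had interactions between -0.17 and 0.07, each smaller than its standard error.

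**Figure D3:**
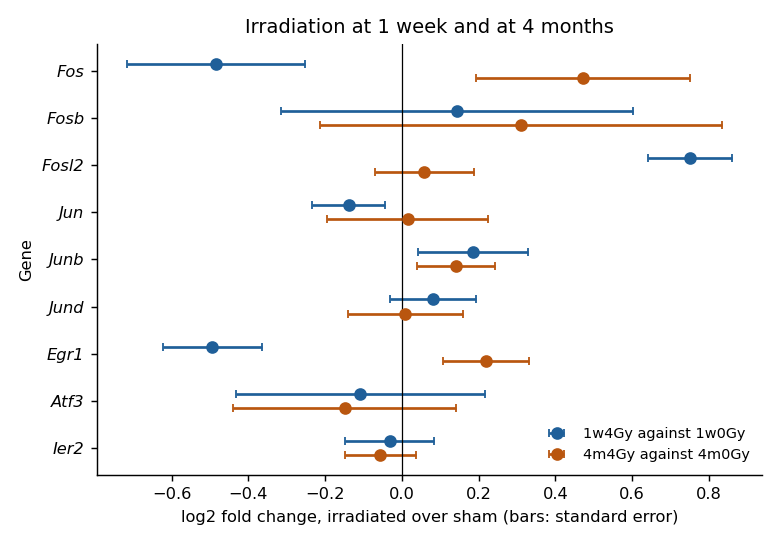
Log2 fold change of irradiated over sham samples at 1 week and at 4 months for the 9 genes tested; points are edgeR estimates from 2 samples against 2 and bars are standard errors. Fos and Egr1 lie at -0.48 and -0.49 after neonatal irradiation and at 0.47 and 0.22 after irradiation at 4 months, whereas Fosl2 lies at 0.75 and 0.06.

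With both ages in 1 fit and age as a term, 4 irradiated samples were compared with 4 sham samples. This fit reuses the samples of the comparisons above and is not separate evidence. Fosl2 had the largest value, a log2 fold change of 0.41 (SE 0.14) with an adjusted p of 0.999 by edgeR. The other 8 members lay between -0.13 and 0.21. Of 9 members, 0 were called by edgeR (0.0128% of genes) and 0 by DESeq2 (0.0765% of genes). Fosl2 alone had an unadjusted p under 0.05 (3.89% of genes), and no member had groups without overlap (1.05% of genes higher and 0.504% lower).

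Between the age groups 2 members passed the test. Junb and Jund were higher in the 4m than in the 1w samples, and Jun, Egr1 and Atf3 had fold changes of similar size that did not pass the test. Jund was 227 ± 28.4 CPM in the 4m samples and 168 ± 14.8 CPM in the 1w samples (SD, n = 4). Its lowest 4m sample, 201 CPM, was above its highest 1w sample, 183 CPM. The fold change was 1.35 (log2 0.44, SE 0.10), with an adjusted p of 0.0330 by edgeR over 15684 genes. Junb was 33.4 ± 2.79 CPM against 24.6 ± 3.46 CPM (SD, n = 4). The lowest 4m sample of Junb, 29.4 CPM in 4m0Gy replicate 1, was just below 1w4Gy replicate 1 at 29.6 CPM, and all other pairs were ordered by age. The fold change of Junb was 1.36 (log2 0.44, SE 0.09), with an adjusted p of 0.0220 by edgeR.

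Both calls were near the threshold. In the sham samples alone the log2 fold changes were 0.46 for Junb and 0.47 for Jund, with adjusted p-values of 0.0929 and 0.156 by edgeR. The Junb call was lost without 1w0Gy replicate 2 (adjusted p = 0.0713), 4m0Gy replicate 2 (0.0531), 4m4Gy replicate 1 (0.0617) or 4m4Gy replicate 2 (0.0529), by edgeR. The Jund call was lost by edgeR without 1w0Gy replicate 1 (adjusted p = 0.0685) or 2 (0.0669), 1w4Gy replicate 2 (0.0763), 4m0Gy replicate 1 (0.0632) or 4m4Gy replicate 2 (0.100). Their log2 fold changes stayed between 0.38 and 0.53 for Junb and between 0.37 and 0.50 for Jund.

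Jun was 126 ± 20.01 CPM in the 4m samples and 94.98 ± 7.64 CPM in the 1w samples (SD, n = 4), with no overlap. Its log2 fold change was 0.41 (SE 0.11), with an adjusted p of 0.0695 by edgeR and 0.00958 by DESeq2. Without 4m0Gy replicate 2 the adjusted p of Jun by edgeR was 0.0229. Atf3 was 2.72 ± 0.276 CPM against 1.961 ± 0.345 CPM (SD, n = 4), also without overlap, and its log2 fold change was 0.47 (SE 0.20) with an adjusted p of 0.213 by edgeR. Egr1 was 25.7 ± 2.80 CPM against 19.6 ± 4.22 CPM (SD, n = 4), with a log2 fold change of 0.40 (SE 0.14) and an adjusted p of 0.146 by edgeR. In the sham samples alone the log2 fold change of Egr1 was 0.05. Without 1w0Gy replicate 1 it was 0.53 with an adjusted p of 0.0493 by edgeR.

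No Fos gene passed the test with age. Fosb was 0.618 ± 0.135 CPM in the 4m samples and 1.09 ± 0.363 CPM in the 1w samples (SD, n = 4). Its log2 fold change of -0.81 (SE 0.33) was the only negative one, with an adjusted p of 0.189 by edgeR and between 7 and 25 counts per sample. Fos was 4.54 ± 1.30 CPM against 3.86 ± 0.811 CPM, and Fosl2 was 22.6 ± 2.15 CPM against 20.9 ± 6.17 CPM (SD, n = 4). Their log2 fold changes were 0.23 (SE 0.23) and 0.15 (SE 0.14). In the sham samples alone the log2 fold change of Fosl2 was 0.50, with an adjusted p of 0.124 by edgeR, and that of Fos was -0.25. A difference between the Fos and the Jun genes was not tested. Ier2 was 33.9 ± 1.46 CPM against 30.6 ± 2.25 CPM, and its log2 fold change was 0.15 (SE 0.07).

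Of 9 members, 2 were called with age by edgeR, both higher in the 4m samples, against 1.87% of genes called higher, 2.39% called lower and 4.27% called in either direction. DESeq2 called 3 members, against 6.62% of genes. At an unadjusted p under 0.05 there were 6 members, against 20.5% of genes. The groups did not overlap, higher at 4 months, in 3 members (6.31% of genes), and, lower, in 0 members (6.45% of genes). The median log2 fold change was 0.40 over the 9 members and -0.0021 over all genes tested. Several cell type lists differed between the ages. All 6 fibroblast markers had negative log2 fold changes (median -1.24, 4 of 6 called by edgeR), as had all 6 macrophage markers (median -0.58, 3 called) and all 8 fat markers (median -0.87, 1 called). The C cell list had a median of 0.75, with 3 of 5 positive and 1 called. Their part in the Junb and Jund values was not tested.

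**Figure D4:**
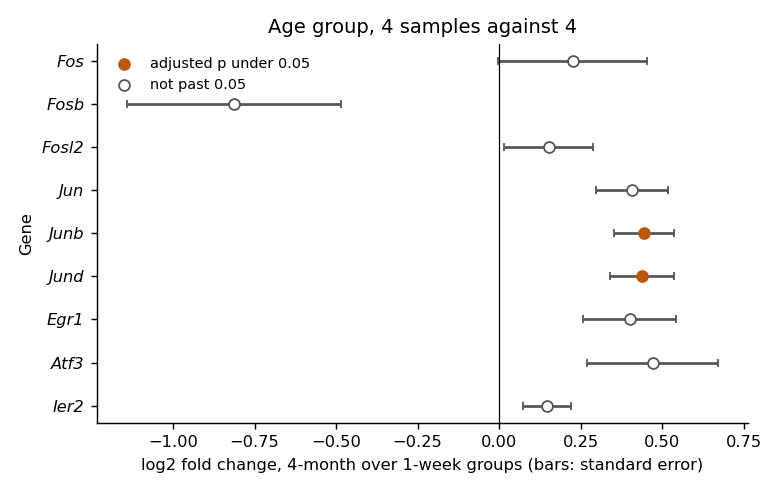
Log2 fold change of the 4m over the 1w samples for the 9 genes tested (4 samples against 4, irradiation as a term); points are edgeR estimates, bars are standard errors, and filled points have an adjusted p under 0.05. Junb and Jund are filled at 0.44 each, Fosb is the only gene below 0 (-0.81), and Fos and Fosl2 lie at 0.23 and 0.15.

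Genes around AP-1 were described by list. The upstream kinases and transcription factors (signalling kinases, Srf, its coactivators, Elk factors and Creb1) were all tested, 14 of 14, and 0 were called by edgeR in any of the 5 comparisons. Their median log2 fold change was 0.0021 after neonatal irradiation, -0.04 after irradiation at 4 months and -0.04 with age. After irradiation at 4 months the values ran from -0.64 to 0.17, and 5 of 14 had an unadjusted p under 0.05, against 8.39% of genes. In 7 of 14 both irradiated samples lay below both sham samples, against 18% of genes. Elk3, a partner of serum response factor, was 77.2 ± 3.02 CPM in the irradiated and 70.2 ± 2.69 CPM in the sham samples of both ages (SD, n = 4). Its log2 fold change was 0.13 (SE 0.06) with an adjusted p of 0.999 by edgeR. That was the highest value of its list, of which 11 of 14 were negative in the same comparison (median -0.04).

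Other dimer partners of the AP-1 proteins (Atf2, Atf7, Batf, Jdp2 and Maf factors) had 8 of 10 genes tested and 0 called by edgeR in the 5 comparisons. Mafg was 111 ± 7.34 CPM in the 4m and 131 ± 10.01 CPM in the 1w samples (SD, n = 4), with a log2 fold change of -0.24 (SE 0.07) and an adjusted p of 0.0790 by edgeR. Jdp2, which encodes a repressor that pairs with Jun proteins, had a log2 fold change with age of -0.37 (SE 0.18) and an adjusted p of 0.266 by edgeR. The list's median with age was -0.0027, with 4 genes positive and 4 negative.

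Of 38 other immediate early genes (Egr, Nr4a, Klf and Ier genes, Myc, Btg2 and others), 36 were tested in the fits of all 8 samples. Hes1, a Notch target and transcriptional repressor, was higher in the 4m samples and was the only one called by edgeR in any comparison. It was 81.2 ± 4.58 CPM in the 4m and 67.5 ± 0.954 CPM in the 1w samples (SD, n = 4), a log2 fold change of 0.27 (SE 0.06) with an adjusted p of 0.0260. The list's median with age was 0.15, with 24 genes positive and 12 negative. After neonatal irradiation the median was -0.02 over 35 genes, 9 of which had an unadjusted p under 0.05 (5.68% of genes). After irradiation at 4 months it was 0.04 over 36 genes, with 5 under 0.05 (8.39% of genes).

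Feedback inhibitors that end immediate early signalling (Dusp phosphatases, Sprouty proteins, Zfp36 mRNA decay factors, Nab corepressors) had 18 of 19 genes tested and 0 called by edgeR in the 5 comparisons. Nab2, which binds and restrains Egr1, was 31.5 ± 2.50 CPM in the 4m and 23.3 ± 3.75 CPM in the 1w samples (SD, n = 4). Its log2 fold change was 0.43 (SE 0.11) with an adjusted p of 0.0529 by edgeR. Zfp36l2 had a log2 fold change with age of 0.17 (SE 0.06) and an adjusted p of 0.116 by edgeR. The list's median was 0.02 after neonatal irradiation, 0.13 after irradiation at 4 months and 0.08 with age.

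Known AP-1 target genes (matrix proteases, plasminogen activator genes, Ccnd1, Timp1, cytokines) had 16 of 21 genes tested. Hmox1, which encodes haem oxygenase, was lower in the 4m samples and was the only one called by edgeR in the 5 comparisons. It was 10.4 ± 0.782 CPM in the 4m and 15.7 ± 1.00 CPM in the 1w samples (SD, n = 4), a log2 fold change of -0.59 (SE 0.10) with an adjusted p of 0.00942. Hmox1 is strongly expressed in macrophages, and the macrophage list was lower in the same samples. The part of these cells in its value was not tested. The median of the target list with age was 0.16, with 10 genes positive and 6 negative. After neonatal irradiation it was -0.04, and after irradiation at 4 months it was 0.16.

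Heat shock genes, which are induced by protein stress and by handling, had 8 of 10 genes tested and 0 called by edgeR in the 5 comparisons. The inducible genes Hspa1a and Hspa1b were not analysed. All 8 tested genes had positive log2 fold changes after neonatal irradiation, with a median of 0.19, against 7681 of 15359 genes. After irradiation at 4 months 7 of 8 were positive, with a median of 0.11, against 7916 of 15253 genes. With age, 7 of 8 were negative, with a median of -0.26, against 7949 of 15684 genes. Dnajb1 had a log2 fold change with age of -0.30 and an adjusted p of 0.0618 by edgeR, and Hspd1 of -0.22 and 0.0642.

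Between samples, the members did not rise and fall as 1 block. Of the 9 members tested, 4 were highest in 4m4Gy replicate 2, 2 in 4m4Gy replicate 1, 2 in 1w4Gy replicate 2 and 1 in 4m0Gy replicate 1. The lowest value was in 1w4Gy replicate 2 for 4 members and in a 1w0Gy sample for 3. The ratio of the highest to the lowest sample was 3.43 for Fosb, 1.99 for both Fos and Atf3, 1.76 for Egr1, 1.75 for Fosl2, 1.72 for Jun, 1.69 for Jund, 1.62 for Junb and 1.23 for Ier2. Within a group, the largest ratio between replicates was 1.52 for Fos, 1.54 for Atf3, 1.33 for Jun, 1.31 for Junb, 1.25 for Jund, 1.22 for Fosl2, 1.20 for Egr1 and 1.14 for Ier2.

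Likeness to Fos was measured by Pearson's r of log2 CPM over the 8 samples, as a description. The samples share their libraries and depth, and Fos had at most 96 counts in any of them. Among the members Egr1 was the most like Fos, with r = 0.69 and Spearman's rho of 0.67, and it ranked 444 of 15684 genes. Junb had r = 0.33, Ier2 0.16, Atf3 0.11, Jun 0.10 and Jund 0.06, whereas Fosb had -0.14 and Fosl2 -0.23. The 5 genes most like Fos were Ptcd1 (r = 0.97), Tfb2m (0.96), AABR07029581.1 (0.95), Mettl18 (0.95) and Ggnbp2 (0.94). None of these 5 was a member or on a list of immediate early genes.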

How the data were processed

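RNA-Seq was performed on 8 rat thyroid samples, 2 in each of 4 groups, from stranded, paired-end DNBSEQ libraries. Per the submitters' processing notes, the authors mapped the reads with HISAT2 2.2.1 and counted them with featureCounts 2.0.0. The genome build, strand setting and treatment of multimapping reads are not given in the sources used here. The deposited table gives raw counts, RPKM and TPM for 54991 transcripts. The authors made the RPKM and TPM values from these counts and the transcript lengths. RPKM was not used. The deposited TPM values served for levels between genes and for 1 alternative. The transcript with the highest summed count stood for its gene.

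The members and lists were chosen with earlier results of these data known. The deposited counts were tested with edgeR 4.0.16 in R 4.3.3 (TMM, filterByExpr, robust glmQLFit, glmQLFTest, Benjamini-Hochberg over all genes tested). The robust option was picked with earlier results known, and the fit without it is an alternative. A call required an adjusted p under 0.05 and, within 1 age, a fold above 1.5 or below 0.5. Standard errors are the log2 fold change over the square root of F. DESeq2 1.42.0 and limma 3.58.1 on log2(TPM + 1) were alternatives. The interaction, pooled irradiation and age tests share all 8 samples. The labels name no batch. P-values rest on the spread between the 2 rats per group, moderated by that of all genes. The pooled irradiation and age fits have no interaction term, so a difference between the responses adds to that spread. Named genes were the 10 members, the called genes of each list or otherwise the 2 with the smallest p, and the 5 genes most like Fos. A gene that this rule names is not reported here. No value is given for 9 listed genes, which were not analysed here. The edgeR, DESeq2 and limma fits were checked on simulated data.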

Additional observations from a re-analysis of the deposited data

Results flagged for a closer look

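Egr1 differed in opposite directions at both ages. In both 1w4Gy samples it was below both 1w0Gy samples (log2 fold change -0.49), and in both 4m4Gy samples it was above both 4m0Gy samples (log2 fold change 0.22). The difference between the responses, fitted as an age-by-irradiation interaction in edgeR, was -0.72 on the log2 scale with an adjusted p of 0.399, which did not pass the threshold. Of the 15684 genes tested, 1468 (9.36%) had all samples apart in opposite directions at both ages, and 742 (4.73%) had the direction of Egr1.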

How the results depend on the processing

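Fosl1 and Fosb were limited by counts of at most 8 and 25. Of 486 log2 fold changes of members under alternatives other than leaving out a sample, 472 kept their direction and their side of the threshold. Without the fold limit or the robust option the log2 fold changes equal the main ones, so their direction could not turn. In 4 a call was lost, each of Junb or Jund with age, the only calls in the main fits. The replicate numbers did not pair the samples (correlations of deviations between same-numbered samples from -0.23 to 0.15). With the replicate number as a block, 1 member was called after neonatal irradiation (Fosl2, log2 fold change 0.75, adjusted p = 0.049996 by edgeR), as by DESeq2 (1 member), and no other member's call changed. Leaving out 1 sample gave 0 to 1 members in that comparison. For age, 1 member was called with counts summed over transcripts, 1 by limma on TPM and 0 in the sham samples alone, and leaving out 1 sample gave 0 to 2. Over all genes, calls after neonatal irradiation numbered 1, and 12 by DESeq2, 10 with the block, 2 without a filter and 0 with summed transcripts, limma or the fit without the robust option. Calls after irradiation at 4 months numbered 3, and 5 by DESeq2, 15 without a filter, 12 with the block, 1 in the fit of all 8 samples and 0 with summed transcripts, limma or the fit without the robust option. For the interaction there were 0, and 26 by DESeq2 and 6 without a filter. For irradiation over both ages there were 2, and 12 by DESeq2, and 1 by limma, the stricter filter or the fit without the robust option. For age there were 669, and 1038 by DESeq2, 414 by limma and 163 in the 4 sham samples. Leaving out 1 sample gave 2 to 45 calls after neonatal irradiation, 3 to 52 after irradiation at 4 months, 0 to 22 for the interaction, 1 to 5 for irradiation over both ages and 292 to 667 for age.

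No value whose direction turned was called, and the cause was not tested. After irradiation at 4 months Jun was -0.042 by limma, and Jund -0.0022 without a filter and -0.0496 by limma. Fos over both ages was -0.00043 by DESeq2, -0.0060 with summed transcripts and -0.017 by limma. Fos with age was -0.25 in the sham samples alone. Leaving out 1 sample turned the direction of 19 member log2 fold changes. For neonatal irradiation these were Atf3 (-0.45 to 0.17), Fosb (-0.47 to 0.58), Ier2 (-0.12 to 0.070), Junb (-0.023 to 0.37) and Jund (-0.032 to 0.21). For irradiation at 4 months these were Fosl2 (-0.078 to 0.20), Ier2 (-0.14 to 0.012), Jun (-0.20 to 0.24) and Jund (-0.16 to 0.18). For the interaction these were Atf3 (-0.31 to 0.31), Fosb (-0.79 to 0.26), Ier2 (-0.076 to 0.13), Jun (-0.38 to 0.056), Junb (-0.17 to 0.22) and Jund (-0.10 to 0.24). For irradiation over both ages these were Fos (-0.23 to 0.14), Fosb (-0.042 to 0.45), Jun (-0.16 to 0.014) and Jund (-0.014 to 0.12).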
